A study of Glycine max with 12 samples.

Results

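Phenylalanine ammonia-lyase (PAL) removes ammonia from phenylalanine and yields trans-cinnamic acid, the entry step of the phenylpropanoid pathway. Lignin, flavonoids, the isoflavonoids typical of legumes and part of the salicylic acid of plants are built from this product. In roots the pathway supplies the lignin of thickening cell walls and phenolic compounds that are stored or released. The genes described here are the 8 soybean loci listed as PAL genes by their Wm82.a2 identifiers, out of 56877 loci with values in the deposited table. They are Glyma.02G309300, Glyma.03G181600, Glyma.03G181700, Glyma.10G058200, Glyma.10G209800, Glyma.13G145000, Glyma.19G182300 and Glyma.20G180800. All 8 were found, and all 8 passed the filter on low counts.

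The data are RNA-seq libraries of total RNA from soybean (Glycine max) roots. A genotype labelled WT and a line labelled OX were each grown with 0 µM AlCl3 (CK) or 50 µM AlCl3 (Al), and each of the 4 groups (WT_CK, WT_Al, OX_CK and OX_Al) has 3 libraries. The labels name neither the gene, promoter or number of clones behind OX, nor the age of the plants or the length of treatment, nor whether the 3 libraries of a group are separate plants. The p-values thus reflect only how these libraries vary, part of which may be technical. Library totals ran from 15923413 to 18399566 estimated counts. The identifiers could not be paired with gene descriptions, so root markers were not checked, and no lists of the later pathway steps were formed. The RefSeq table of soybean genes (assembly Glycine_max_v4.0) holds 8 genes with a PAL symbol. They lie on the chromosomes that the 8 identifiers name, with 2 on chromosome 3, 2 on chromosome 10 and 1 each on chromosomes 2, 13, 19 and 20. None of the identifiers occurs in that table, so no symbol was assigned to a member. The identifiers Glyma.03G181600 and Glyma.03G181700 follow each other in number, and RefSeq places 0 genes between the PAL genes of chromosome 3.

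The decimals of some PAL counts complemented each other. Values of Glyma.03G181600 and Glyma.03G181700 were not whole numbers in all 12 libraries, and those of Glyma.10G058200 and Glyma.13G145000 were not whole in 10. In each of these 10 libraries the counts of Glyma.10G058200 and Glyma.13G145000 added up to a whole number within 0.001. The sum of Glyma.03G181600 and Glyma.03G181700 was whole in 10 of 12 libraries, and with Glyma.19G182300 added it was whole in 11 within 0.001 and in all 12 within 0.015. The split of reads within these sets is thus uncertain, whereas a division of reads inside a set does not touch its sum. That reads were divided is inferred from these sums, since the origin of the decimals is not stated. Glyma.02G309300, Glyma.10G209800 and Glyma.20G180800 had whole values in every library.

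The first comparison asked how PAL genes respond to aluminium in WT roots. Of the 8 members, 2 rose with Al and 0 fell at an adjusted p under 0.05 (edgeR quasi-likelihood test, adjusted over 37170 genes). Across all tested genes 37.4% were called in this comparison and 21.5% rose, so the 2 of 8 members are near the background. In the line labelled OX, 1 member rose and 0 fell, where 36.4% of all genes were called and 21.2% rose. Glyma.10G209800 was the member called in both lines. The WT_Al libraries lay above all WT_CK libraries for 3 members, against 25.8% of all tested genes, and the OX_Al libraries lay above all OX_CK libraries for 1 member, against 27.8%. No member lay wholly below its CK libraries in either line, against 21.3% of all genes in WT and 23.2% in OX.

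**Figure D1:**
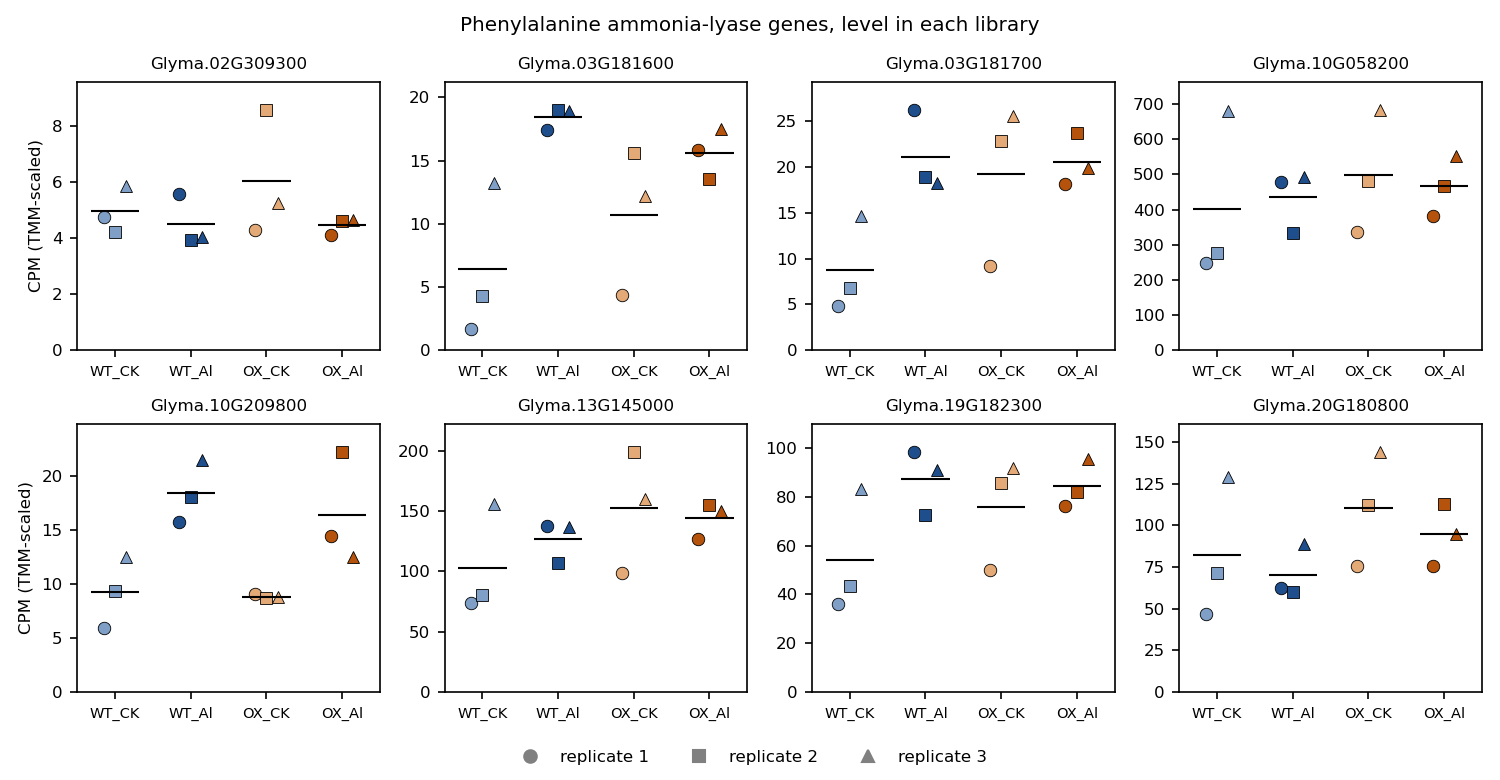
Level of each PAL gene in each of the 12 libraries, in CPM (linear axis from 0); each point is a library, its shape the replicate number, and the bar the group mean. For Glyma.10G209800 the Al libraries lie above the CK libraries in both lines, and WT_CK replicate 3 is the highest WT_CK library in all 8 panels.

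Glyma.10G209800 rose with Al in both lines. Its level in CPM, the counts scaled to a common library size by TMM, was 5.92, 9.32 and 12.5 CPM in the WT_CK libraries and 15.7, 18.04 and 21.4 CPM in WT_Al. In the OX line it was 9.04, 8.67 and 8.75 CPM in OX_CK and 14.4, 22.2 and 12.5 CPM in OX_Al. Neither line showed an overlap between treatments, and the CK groups of the lines overlapped, as did the Al groups. The log2 fold change was 0.99 ± 0.26 (SE, adjusted p = 0.0111) in WT and 0.89 ± 0.26 (SE, adjusted p = 0.0208) in OX. In WT the adjusted p stayed between 0.00259 and 0.0384 over all alternatives run. The call in OX ended without OX_CK replicate 1 or 2 or without OX_Al replicate 2 (adjusted p = 0.0593, 0.0628 and 0.12). This member had 108 to 387 counts per library.

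The consecutively numbered genes of chromosome 3 had the largest fold changes with Al in WT among the 8 members. Glyma.03G181600 was at 1.65, 4.27 and 13.2 CPM in WT_CK and at 17.4, 18.98 and 18.9 CPM in WT_Al. Glyma.03G181700 was at 4.77, 6.83 and 14.6 CPM in WT_CK and at 26.2, 18.9 and 18.2 CPM in WT_Al. For both genes every WT_Al library exceeded every WT_CK library, and the WT_CK libraries themselves differed widely, with replicate 3 closest to the Al level. Glyma.03G181700 rose, at a log2 fold change of 1.27 with an SE of 0.41 and an adjusted p of 0.029. The value for Glyma.03G181600 was 1.52 ± 0.57 (SE), which missed the threshold (adjusted p = 0.0545). With their counts added into 1 row, which is not touched by reads divided between them, the log2 fold change was 1.38 ± 0.46 (SE, adjusted p = 0.0332). The call of Glyma.03G181700 ended without WT_CK replicate 1 or 2 or WT_Al replicate 1 or 2 (adjusted p = 0.0945, 0.103, 0.104 and 0.0506). Glyma.03G181600 was called by the DESeq2 Wald test (adjusted p = 0.026), by limma-voom (0.0158), with the replicate number as a block (0.0225), without WT_CK replicate 3 (0.00166) and without OX_CK replicate 1 (0.0401).

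In the OX line neither chromosome 3 gene was called. Glyma.03G181600 was at 4.35, 15.6 and 12.2 CPM in OX_CK and 15.8, 13.5 and 17.5 CPM in OX_Al. Glyma.03G181700 was at 9.22, 22.9 and 25.6 CPM in OX_CK and 18.1, 23.7 and 19.9 CPM in OX_Al. OX_CK replicate 1 was the low library for both, and the other OX_CK libraries overlapped with OX_Al. The log2 fold change was 0.54 ± 0.56 (SE, adjusted p = 0.469) for the former and 0.10 ± 0.40 (SE, adjusted p = 0.867) for the latter, with 95% intervals from -0.67 to 1.76 and from -0.77 to 0.96.

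Glyma.19G182300, whose counts were not whole in 2 libraries, was at 36.03, 43.6 and 83.3 CPM in WT_CK and 98.3, 72.6 and 91.2 CPM in WT_Al. It was at 50.1, 85.6 and 91.7 CPM in OX_CK and 76.3, 82.03 and 95.6 CPM in OX_Al. Its treatments overlapped in both lines, in WT through replicate 3 of WT_CK. The log2 fold change was 0.69 ± 0.30 (SE, adjusted p = 0.0905) in WT and 0.16 ± 0.30 (SE, adjusted p = 0.703) in OX. In WT it was called with the replicate number as a block (adjusted p = 0.0243) and without WT_CK replicate 3 (log2 fold change 1.13, adjusted p = 0.00334).

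The members with the highest counts showed no call with Al in either line. Glyma.10G058200 had between 4537 and 13218 counts per library. Its level was 249, 276 and 681.5 CPM in WT_CK, 479, 334 and 492 CPM in WT_Al, 335, 480.0 and 682 CPM in OX_CK and 383, 466 and 553 CPM in OX_Al. The range of the CK libraries enclosed the Al libraries in both lines. The log2 fold change was 0.11 (95% interval -0.70 to 0.93) in WT and -0.10 (-0.91 to 0.72) in OX. Glyma.13G145000, whose decimals complemented those of Glyma.10G058200, was at 73.6, 80.2 and 155.8 CPM in WT_CK and 137.8, 107.3 and 136.8 CPM in WT_Al. It was at 98.4, 198.8 and 159.8 CPM in OX_CK and 126.7, 154.9 and 150.4 CPM in OX_Al. Again the Al libraries lay within the range of CK. Its log2 fold change was 0.30 (95% interval -0.35 to 0.95) in WT and -0.08 (-0.73 to 0.57) in OX, and without WT_CK replicate 3 it was called in WT (log2 fold change 0.73, adjusted p = 0.0353). Both genes added into 1 row gave 0.15 ± 0.36 (SE, adjusted p = 0.764) in WT and -0.09 ± 0.36 (SE, adjusted p = 0.858) in OX.

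Glyma.20G180800 and Glyma.02G309300 were the members with a negative log2 fold change in both lines, and neither was called. Glyma.20G180800 was at 46.6, 71.5 and 128.9 CPM in WT_CK, 62.7, 59.98 and 88.6 CPM in WT_Al, 75.7, 111.9 and 143.8 CPM in OX_CK and 75.8, 112.9 and 95.04 CPM in OX_Al. Its groups overlapped in every comparison. The log2 fold change with Al was -0.23 (95% interval -0.96 to 0.51) in WT and -0.22 (-0.96 to 0.51) in OX. Glyma.02G309300 had few counts, between 63 and 158 per library. It was at 4.77, 4.22 and 5.88 CPM in WT_CK, 5.56, 3.93 and 4.04 CPM in WT_Al, 4.29, 8.57 and 5.24 CPM in OX_CK and 4.13, 4.60 and 4.65 CPM in OX_Al. OX_CK replicate 2 was its highest library, and the other 11 lay between 3.93 and 5.88 CPM. Its log2 fold change was -0.14 (95% interval -0.71 to 0.43) in WT and -0.44 (-1.01 to 0.14) in OX.

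**Figure D2:**
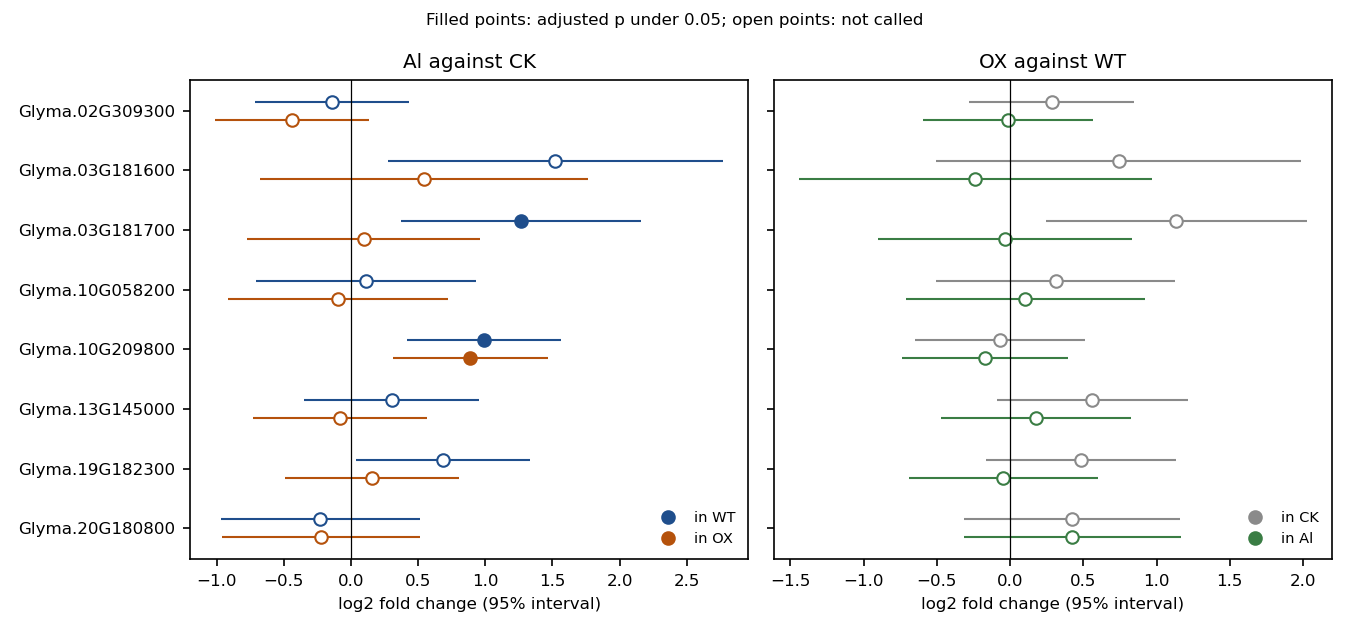
Log2 fold change of each PAL gene with its 95% interval, for Al against CK in both lines (left) and OX against WT in both treatments (right); filled points passed an adjusted p under 0.05 and open points did not. Glyma.10G209800 is filled in WT and in OX, Glyma.03G181700 in WT, and no point is filled for OX against WT.

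Across the 8 members the median log2 fold change with Al was 0.49 in WT and 0.01 in OX, against -0.04 and -0.02 over all tested genes. The median size of the change, regardless of sign, was 0.49 in WT and 0.19 in OX, against 0.48 and 0.49 over all genes. In WT 6 members had a positive value, and in OX 4. The members varied largely together across the CK libraries, so these signs are not separate observations. Scaling by library totals alone shifted the median of all genes by -0.18 in WT and -0.17 in OX. It turned the uncalled values of Glyma.10G058200 in WT and of Glyma.03G181700 and Glyma.19G182300 in OX to just below 0. The calls were the same: Glyma.10G209800 had an adjusted p of 0.029 and 0.0499 in WT and OX, and Glyma.03G181700 of 0.0461 in WT. With the replicate number as a block, 4 members rose in WT, where 43.8% of all genes were called in either direction. These were Glyma.10G209800, Glyma.03G181700, Glyma.03G181600 (log2 fold change 1.76, adjusted p = 0.0225) and Glyma.19G182300 (0.77, adjusted p = 0.0243).

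The WT count of called members depended on WT_CK replicate 3. In that library all 8 members had the highest level of the 3 WT_CK libraries. Relative to the mean of the other WT_CK libraries it stood 4.48 times as high for Glyma.03G181600, 2.60 times for Glyma.10G058200, 2.53 times for Glyma.03G181700 and 2.18 times for Glyma.20G180800. The remaining members lay between 1.31 times for Glyma.02G309300 and 2.09 times for Glyma.19G182300. The median ratio over 30788 genes with a mean of at least 2 CPM was 0.999, and 3.45% of these genes had a ratio at least as high as that of Glyma.10G058200. When WT_CK replicate 3 was left out, 5 members were called as higher with Al in WT, where 41.9% of all genes were called in either direction. Without WT_CK replicate 1, WT_CK replicate 2, WT_Al replicate 1 or WT_Al replicate 2 only 1 was called, where 31%, 28.2%, 27.2% and 28.7% of all genes were called.

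In OX_CK, replicate 1 was the lowest library for 7 of 8 members, the exception being Glyma.10G209800. Its ratio to the mean of the other OX_CK libraries was 0.313 for Glyma.03G181600, 0.38 for Glyma.03G181700 and between 0.549 and 0.621 for Glyma.02G309300, Glyma.10G058200, Glyma.13G145000, Glyma.19G182300 and Glyma.20G180800. For Glyma.10G209800 it was 1.04, and the median of the 30788 genes was 0.995. Of these genes, 1.14% had a ratio at most as low as that of Glyma.03G181600. This percentage was 7.66% for Glyma.02G309300 and 57.75% for Glyma.10G209800, with the other members below 7.66%. The highest library was a median of 2.53 times the lowest over the 8 members in WT_CK and 2.01 times in OX_CK, against 1.42 and 1.39 times for the median gene. The 95th percentile of genes was 3.37 and 2.87 times, and 1 of 8 members lay above it in each group. Within WT_Al and OX_Al the members' medians were 1.39 and 1.30 times, against 1.31 and 1.25 for the median gene. There 0 members lay above the 95th percentile of genes, at 2.34 and 2.04 times. No comparison of these spreads was tested.

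**Figure D3:**
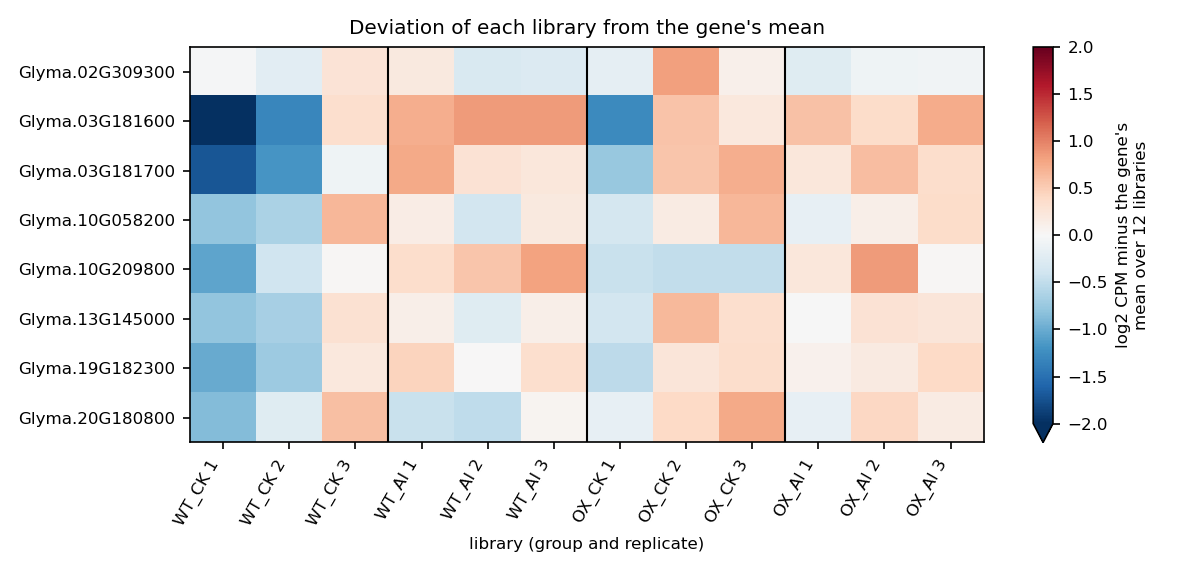
Log2 CPM of each PAL gene in each library minus the gene's mean over the 12 libraries (colour, from -2 to 2; lower values take the darkest blue), with lines between groups. WT_CK replicates 1 and 2 and OX_CK replicate 1 are blue for nearly all genes, WT_CK replicate 3 is near 0 or red, and Glyma.10G209800 is blue in all OX_CK libraries.

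The next comparison asked whether the lines differ in PAL expression. Without Al, 0 of 8 members were called, where 4.43% of all tested genes were, and 1 member, Glyma.03G181700, had an unadjusted p under 0.05, against 16.2% of all genes. With Al, 0 of 8 were called against 6.07% of all genes, and 0 members had an unadjusted p under 0.05, against 16.5% of all genes. The DESeq2 Wald test also called 0 members in both treatments, and 7.52% of all genes in CK and 8.47% in Al. Likewise limma-voom called 0 members, and 3.89% and 7.08% of all genes. No member separated the lines without overlap in either treatment, against 17.5% of all genes in CK and 25.6% in Al. In CK 7 members had a positive log2 fold change of OX against WT and 1 a negative value. The members rose and fell largely together across the CK libraries, so their signs are not separate observations. Their median was 0.45, against -0.0025 over all tested genes. The largest log2 fold change was that of Glyma.03G181700, at 1.13 (95% interval 0.24 to 2.02, adjusted p = 0.169), followed by Glyma.03G181600 at 0.74 (-0.51 to 1.99). Glyma.10G058200 was at 0.31 (-0.51 to 1.13), and Glyma.10G209800 was the negative member at -0.07 (-0.65 to 0.51).

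These values without Al rest on the WT_CK and OX_CK libraries that differed among themselves. Without WT_CK replicate 3, Glyma.03G181700 (log2 fold change 1.73, adjusted p = 0.0254) and Glyma.13G145000 (0.99, adjusted p = 0.047) were called as higher in OX, and without OX_CK replicate 1 Glyma.03G181700 alone (1.48, adjusted p = 0.0426). In these fits 4.72% and 5.04% of all genes were called in either direction. With Al, the 8 log2 fold changes of OX against WT ran from -0.24 for Glyma.03G181600 to 0.43 for Glyma.20G180800. Their median was -0.02, against -0.046 over all tested genes. The intervals were narrowest for Glyma.10G209800 (-0.74 to 0.39) and Glyma.02G309300 (-0.59 to 0.57) and widest for Glyma.03G181600 (-1.44 to 0.97).

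The test of a difference in the Al response between the lines called 0 of 8 members, where 1.63% of all genes were called, and 0 members had an unadjusted p under 0.05, against 12.2% of all genes. DESeq2 and limma-voom called 0 members as well, and 4.01% and 1.22% of all genes. The difference of OX minus WT was negative for 7 members, with a median of -0.34 over the 8, against -0.03 over all tested genes. These signs too are not separate observations, since the members varied largely together across the CK libraries. The difference was -1.17 ± 0.57 on the log2 scale (SE, 95% interval -2.41 to 0.07, adjusted p = 0.447) for Glyma.03G181700 and -0.98 ± 0.79 (SE, -2.71 to 0.75, adjusted p = 0.691) for Glyma.03G181600. For Glyma.10G209800 it was -0.10 ± 0.37 (SE, -0.91 to 0.71, adjusted p = 0.944). That Glyma.03G181700 was called in WT and not in OX is thus no evidence of unequal responses. Equal responses are not shown either, since the 95% interval of the difference reached beyond 2-fold for 7 of 8 members.

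Summed over the 8 genes, the PAL level was 422, 496 and 1096 CPM in WT_CK and 842, 634 and 871 CPM in WT_Al. It was 586, 932 and 1129 CPM in OX_CK and 714, 879.8 and 948 CPM in OX_Al. The groups overlapped in all comparisons, and the lowest and the highest sum both belonged to CK libraries. With Al the mean sum was 1.17 times that of CK in WT and 0.96 times in OX. The OX mean was 1.32 times the WT mean without Al and 1.08 times with it. These sums are not touched by a division of reads among the members, and no p was computed for them.

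**Figure D4:**
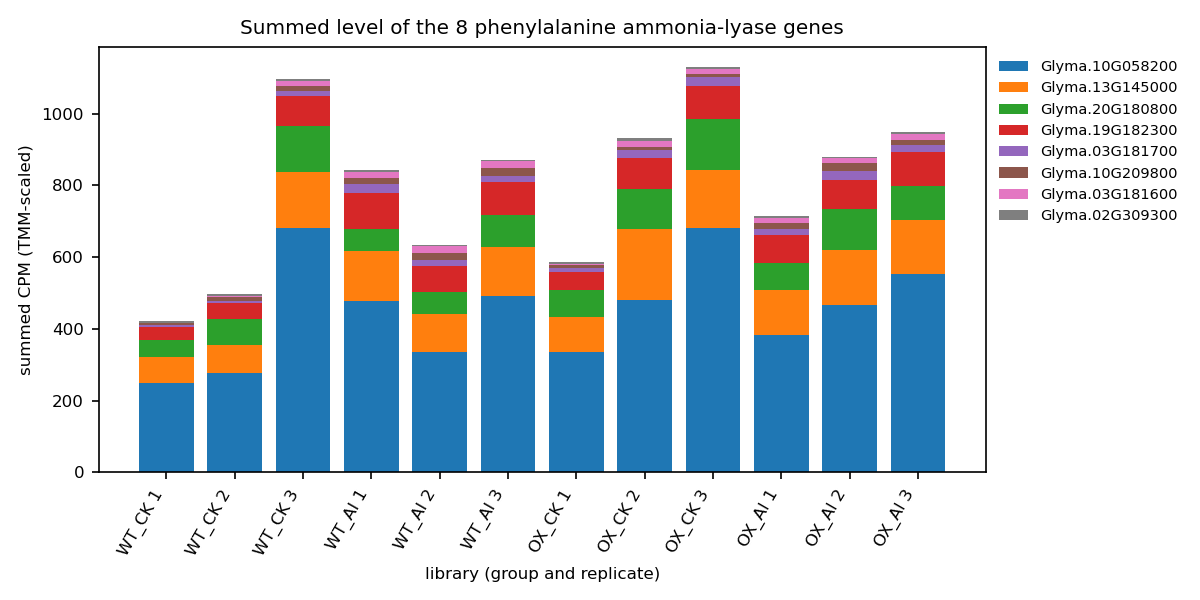
Summed level of the 8 PAL genes in each library, in CPM (TMM-scaled), stacked by gene. The sums run from 422 CPM in WT_CK replicate 1 to 1129 CPM in OX_CK replicate 3, and Glyma.10G058200 is the lowest block of each bar.

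The make-up of the sum was followed as the share of each member. Counts grow with transcript length, which the files do not give, so a share describes a gene across libraries and does not rank transcripts of different genes. Glyma.10G058200 gave 58.9% ± 3.26 (SD, n = 3) of the summed PAL level in WT_CK and 55.4% ± 2.27 in WT_Al. In the OX line the share was 56.4% ± 4.52 for OX_CK and 54.95% ± 2.91 for OX_Al. The share of Glyma.19G182300 was 8.31% ± 0.627 in WT_CK and 11.2% ± 0.636 in WT_Al, and 8.62% ± 0.536 in OX_CK and 10.03% ± 0.685 in OX_Al. It was the member whose share was higher in every Al library than in every CK library in both lines. In WT the share of Glyma.03G181600 was also higher in all Al libraries, at 2.41% ± 0.508 against 0.82% ± 0.411, as was that of Glyma.03G181700, at 2.73% ± 0.554 against 1.28% ± 0.132. The share of Glyma.20G180800 was lower in all WT_Al than in all WT_CK libraries, at 9.02% ± 1.42 against 12.4% ± 1.78. Glyma.03G181700 was the member whose share separated the lines, being higher in every OX_CK library (2.1% ± 0.465) than in every WT_CK library. The small shares varied most for their size, as for Glyma.10G209800 in OX_Al at 1.95% ± 0.602. The shares were not tested, and those of a library depend on each other as parts of the same sum. Every member was checked in every comparison, and with n = 3 per group some shares can separate without a true difference. The separate shares of Glyma.03G181600 and Glyma.03G181700 also rest on the uncertain split of reads between them. The level of Glyma.19G182300 itself overlapped between treatments in both lines.

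The ratio of Glyma.10G209800 to Glyma.20G180800, both with whole counts only, was also followed. It was 0.127, 0.13 and 0.0968 in WT_CK and 0.251, 0.301 and 0.242 in WT_Al. In OX it was 0.119, 0.0775 and 0.0608 in OX_CK and 0.19, 0.196 and 0.132 in OX_Al. Every Al library exceeded every CK library over both lines, with 0.132 and 0.13 as the nearest values. The pair was chosen after its values were seen, and no test was made.

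Likeness of profiles was measured by the root-mean-square difference of log2(CPM + 1), each gene centred on its mean over the 12 libraries. Among the members the closest were Glyma.13G145000 and Glyma.19G182300 (0.204), followed by Glyma.10G058200 and Glyma.13G145000 (0.22), whose decimals complemented each other. The farthest apart were Glyma.02G309300 and Glyma.03G181600 (0.909). Among the 25494 other genes with a mean of at least 5 CPM, the profiles nearest to Glyma.10G058200, the member with the highest counts, were those of Glyma.08G129600 (0.177) and Glyma.17G179200 (0.177), where the median gene was at 0.574. Nearest to the sum of the 8 members were Glyma.17G179200 (0.137) and Glyma.07G214700 (0.153), with a median gene at 0.556. These genes were picked as the nearest of all candidates, so values below the median gene follow from the choice and show no particular link. Glyma.17G179200 averaged 93.5 CPM in WT_CK and 101.7 in WT_Al, and 115.6 CPM in OX_CK and 123.7 in OX_Al.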

How the data were processed

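Estimated counts per gene for 12 libraries, without scaling between them, make up the single deposited table (its columns are named counts, per the file headers). Values have up to 2 decimals, and 13.25% are not whole (tolerance 1e-06). Per the submitters' processing notes, the tools were HTSeq 0.6.0, HISAT2 2.1.0, TopHat2, Bowtie2 2.2.3 and CASAVA, with no roles stated. The sources used here give no build, annotation, strand setting or origin of the decimals. Of the rows, 8 held stray text and were left out.

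Counts were rounded to whole numbers. The filter was filterByExpr (minimum count 10, minimum total 15), which kept 37170 genes, and scaling was by TMM. edgeR 4.0.16 in R 4.3.3 fitted all genes and 12 libraries with a mean per group. Its robust quasi-likelihood test was two-sided, with Benjamini-Hochberg adjustment over all genes tested. The SE was obtained by dividing the fold change (log2) by the root of F and is approximate, as is the 95% interval from it. The procedure was tested on simulated data. Alternatives used DESeq2 1.42.0 and limma 3.58.1, other scaling, no filter, other rounding, fewer samples and a replicate block. Summed rows and unscaled totals were added after seeing the data.

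The members, lists and tests were chosen with earlier results of these data known. Named genes were all 8 members and the 2 genes nearest in profile to the member with the highest counts and to the sum. Lists of pathway genes and tissue markers needed descriptions that could not be matched to the identifiers (0 matched) and were not used. Libraries with the same replicate number were compared by correlating their deviations from the group mean across genes. Between WT_CK and WT_Al these correlations were 0.129, 0.219 and 0.361, and between WT_CK and OX_CK 0.413, 0.125 and 0.582. All exceed 0.1, the minimum set beforehand. Libraries with different numbers were not correlated, so these values cannot show that the numbers pair libraries. Between OX_CK and OX_Al they were 0.204, -0.004 and 0.163. Between WT_Al and OX_Al they were 0.033, -0.131 and -0.003. Neither set exceeded 0.1 throughout.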

Additional observations from a re-analysis of the deposited data

How the results depend on the processing

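The number of PAL members called was within 1.5 times the reported count in 91 of 104 recomputed counts. This total includes the comparisons with a reported count of 0, where a recomputed 0 counted as agreement. It also includes fits that left out a library outside the comparison, so it says little about the stability of the calls. For Al against CK in WT the number called was 2, with 0 at an adjusted p under 0.01 (23.6% of all genes) and 4 under the replicate block (43.8%). It was 1 to 5 when a library was left out, where 27.2% to 41.9% of all genes were called. For Al against CK in OX it was 1, with 0 at an adjusted p under 0.01 (21.6% of all genes). It was 0 to 1 when a library was left out, where 25.1% to 41.5% of all genes were called. For OX against WT in CK it was 0, and 0 to 2 when a library was left out, where 1.92% to 5.04% of all genes were called. For OX against WT in Al and for the difference of the Al response it was 0 in every setting. Of all genes, 3.07% to 9.42% were called in the former and 0.395% to 4.01% in the latter. The replicate block changed the calls of Glyma.03G181600 and Glyma.19G182300 in WT and no other call of a member. When a library was left out, the log2 ratio of the summed level, Al against CK in WT, ran from -0.025 to 0.77. Leaving out 1 of 3 libraries cannot move a group's mean share by 1 SD, so those values do not bear on stability. Per-length values were not run, since lengths were not known.

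Of 812 recomputed fold changes of single members, 748 kept their sign and their side of the threshold. In 45 an uncalled value changed sign, and not all of these were near 0. Without WT_CK replicate 3, Al against CK in WT went from -0.23 to 0.26 for Glyma.20G180800. Its difference of the Al response went from 0.002 to -0.48 in the same fit. With library totals alone, Al against CK was -0.069 for Glyma.10G058200 in WT and -0.063 and -0.0029 for Glyma.03G181700 and Glyma.19G182300 in OX. Glyma.02G309300 in OX against WT with Al was 0.0053 with DESeq2 size factors, 0.014 without a filter, 0.0058 with the DESeq2 Wald test, 0.011 with limma-voom and 0.021 with the groups of the comparison alone. The difference of Glyma.20G180800 was -0.070 with limma-voom and -0.034 with the replicate block.

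When a library was left out, Al against CK in WT ran from -0.31 to 0.0035 for Glyma.02G309300, from -0.14 to 0.73 for Glyma.10G058200 and from -0.51 to 0.26 for Glyma.20G180800. In OX it ran from -0.24 to 0.36 for Glyma.03G181700, -0.32 to 0.20 for Glyma.10G058200, -0.32 to 0.15 for Glyma.13G145000, -0.071 to 0.32 for Glyma.19G182300 and -0.44 to 0.011 for Glyma.20G180800. OX against WT in CK ran from -0.042 to 0.49 for Glyma.02G309300 and -0.31 to 0.21 for Glyma.10G209800. With Al it ran from -0.10 to 0.17 for Glyma.02G309300, -0.14 to 0.15 for Glyma.03G181700, -0.056 to 0.25 for Glyma.10G058200 and -0.16 to 0.050 for Glyma.19G182300. The difference of the Al response ran from -0.49 to 0.041 for Glyma.02G309300, -0.83 to 0.082 for Glyma.10G058200, -0.40 to 0.13 for Glyma.10G209800 and -0.48 to 0.28 for Glyma.20G180800. The cause was not tested. Depth was lowest for Glyma.02G309300, at 63 to 158 counts per library, and for Glyma.03G181600 in WT_CK replicate 1, at 29.6 counts.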
